A study of Mus musculus with 43 samples.

Results

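The 9 genes described here encode superoxide dismutases (Sod1, Sod2, Sod3), catalase (Cat) and glutathione peroxidases (Gpx1, Gpx3, Gpx4, Gpx7, Gpx8). They were chosen by symbol from the 55804 gene rows of each of 2 deposited tables of brain RNA abundance, and each symbol matched 1 row in both tables. The tables hold 43 brain libraries from 2 cohorts of mice. AppNLGF mice carry familial Alzheimer's disease mutations in their own App gene (App NL-G-F/NL-G-F). APP/TAU mice carry human transgenes for APP with V717I and for TAU with P301L, and the labels do not give the promoters that drive them. The NRF2 inducer CDDO-2P-Im, written 2P-Im below, is an oleanane triterpenoid made by synthesis. Mice received it orally 3 times a week in doses of 30 µmol/kg. The AppNLGF cohort, 6 months old, held 13 libraries of AppNLGF mice given 2P-Im for 4 weeks (AppNLGF 2P-Im), 11 of AppNLGF mice given vehicle (AppNLGF vehicle) and 4 of wild-type mice given vehicle (WT vehicle 6M). At 11 months of age, the APP/TAU cohort comprised 5 libraries of APP/TAU mice given 2P-Im for 2 weeks (APP/TAU 2P-Im), 5 of APP/TAU mice given vehicle (APP/TAU vehicle) and 5 of wild-type mice given vehicle (WT vehicle 11M). The vehicle was 10% DMSO and 10% Chremophol EL in PBS. Model mice given vehicle had the same doses per week and weeks as the treated mice of their cohort. No schedule is stated for the wild-type mice, so it may differ. The labels give the tissue as brain, name no brain region, and number the libraries of a group without saying that each came from a separate animal, so each p-value rests on the spread among libraries, which may be technical.

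Superoxide dismutases turn superoxide into hydrogen peroxide: SOD1 is the copper and zinc enzyme of the cytosol, SOD2 the manganese enzyme of the mitochondrial matrix, and SOD3 the secreted enzyme that binds the extracellular matrix. Catalase breaks down hydrogen peroxide in peroxisomes. Glutathione peroxidases reduce peroxides with glutathione: GPX1 works in cytosol and mitochondria, GPX3 is secreted, and GPX4 reduces lipid peroxides in membranes and is the enzyme whose loss leads to ferroptosis. These 3 are selenoproteins in the mouse. GPX7 and GPX8 lie in the endoplasmic reticulum, where they act on peroxide made during protein folding, and have a cysteine in place of selenocysteine. NRF2 binds antioxidant response elements near many genes of glutathione and thioredoxin metabolism, and the question put to these 9 genes is whether their RNA differed with genotype or with the NRF2 inducer.

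Because the inducer acts through NRF2, the stretch just before each gene's start was searched for the core of the antioxidant response element, TGACNNNGC, on both strands (GCNNNGTCA on the other strand). RefSeq start sites on GRCm38.p6 gave 11 windows of 250 bases before to 50 bases after the start, for 8 of the 9 genes, all but Sod3. Of these windows 1 held a match, that of Sod1, where the match begins 56 bases before the start. Of all 32851 windows, 12.4% held a match. The stretches before the starts of Sod1 (chr16:90220512-90220761, plus strand) and of its mitochondrial counterpart Sod2 (chr17:13007589-13007838, plus strand) are shown 5′ to 3′, with the match in capitals. The Sod2 stretch has no match.
Sod1: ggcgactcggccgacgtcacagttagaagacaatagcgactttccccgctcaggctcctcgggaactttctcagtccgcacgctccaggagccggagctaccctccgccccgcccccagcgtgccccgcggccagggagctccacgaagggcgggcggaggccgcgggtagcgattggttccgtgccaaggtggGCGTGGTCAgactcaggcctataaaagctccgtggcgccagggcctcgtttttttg
Sod2: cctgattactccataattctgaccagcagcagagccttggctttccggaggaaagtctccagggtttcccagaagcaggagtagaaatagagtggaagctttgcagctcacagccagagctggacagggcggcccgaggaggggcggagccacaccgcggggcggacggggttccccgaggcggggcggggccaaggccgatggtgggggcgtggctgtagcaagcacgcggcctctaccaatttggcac
A match is a description of the letters and no evidence of binding.

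The 9 RNAs spanned about 2 orders of magnitude in TPM, a share of all transcripts in a library that divides by transcript length and can therefore be set side by side between genes. Gpx4 and Sod1 were the most abundant in all 6 groups, with group means of 172 to 188 TPM for Gpx4 and 170.2 to 197 TPM for Sod1, and neither was above the other in every library of a group. Gpx1 and Sod2 came next. By gene rows they were not separated in the AppNLGF cohort. Gpx1 was above Sod2 there in 7 of 13 AppNLGF 2P-Im, 7 of 11 AppNLGF vehicle and 2 of 4 WT vehicle 6M libraries. In the APP/TAU cohort Sod2 was above Gpx1 in all 15 libraries. The AppNLGF table also lists single transcripts outside the gene rows. For Sod2 these averaged 29.1 TPM in AppNLGF 2P-Im, 26.4 TPM in AppNLGF vehicle and 27.2 TPM in WT vehicle 6M libraries. For Gpx1 they averaged 0.229 to 0.248 TPM. The order of these 2 genes in the AppNLGF cohort thus depends on the rows counted, and cannot be compared between the cohorts. Cat followed at group means of 15.1 to 21.8 TPM, below both Gpx1 and Sod2 in each library. Gpx3 stood sixth, at 3.51 to 5.47 TPM in the AppNLGF groups and 10.02 to 11.2 TPM in the APP/TAU cohort. Sod3 and Gpx8, at 2.02 to 3.16 and 2.11 to 2.97 TPM, had overlapping ranges in every group, and Gpx7 was lowest at 0.947 to 1.64 TPM. Gpx3 overlapped the range of Sod3 or Gpx8 in the AppNLGF 2P-Im and AppNLGF vehicle groups, and that of Cat in the WT vehicle 11M group. The cohorts differ in age, genotype, treatment time and table, so levels were not tested between them.

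**Figure D1:**
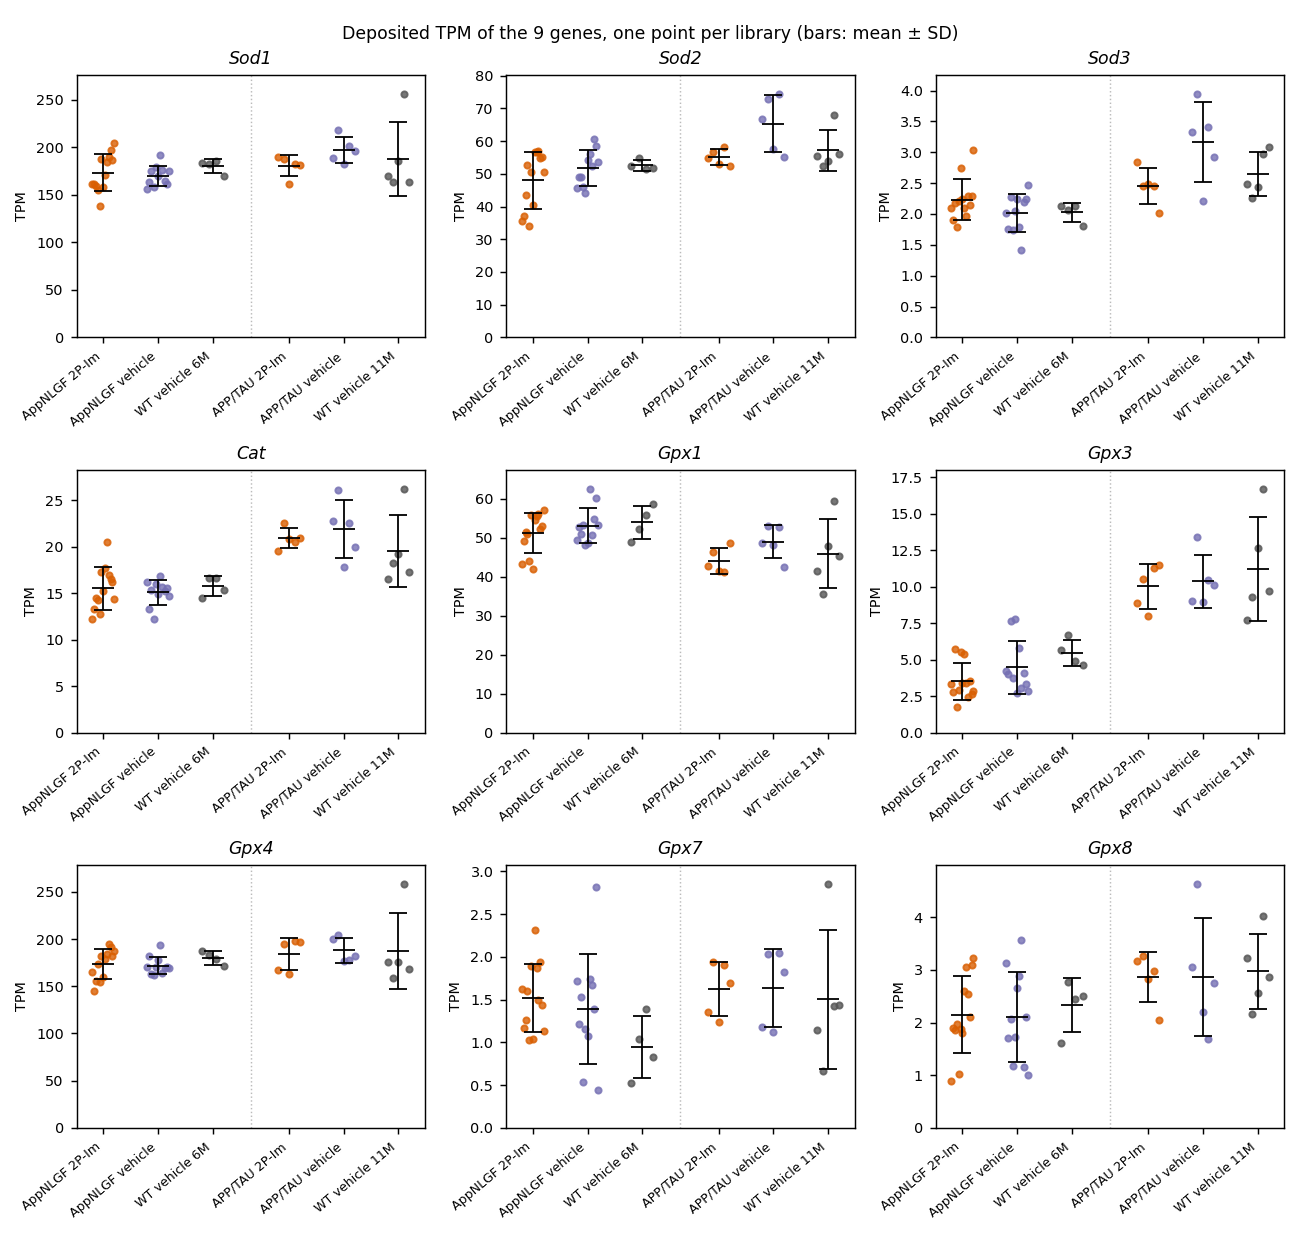
Deposited TPM (vertical axes, starting at 0) of each of the 9 genes, with 1 point per library and bars for the mean ± SD of each of the 6 groups. For Sod2, APP/TAU vehicle libraries reach 74.4 TPM where APP/TAU 2P-Im libraries reach 58.2, and 1 WT vehicle 11M library lies far above its group for Sod1, Cat and Gpx4 (256, 26.2 and 258 TPM).

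None of the 9 genes passed the test in any comparison. Each was tested with limma on log2(TPM + 1) in a fit over all genes of its table with a mean of at least 1 TPM (16776 genes for the AppNLGF cohort and 17592 for the APP/TAU cohort), and a gene was called at a Benjamini-Hochberg adjusted p below 0.05. All 9 genes were above the minimum in both tables. Of all genes tested, 0.0477% were called higher and 0.00596% lower in AppNLGF 2P-Im against AppNLGF vehicle libraries, 0.244% and 0.0179% in AppNLGF 2P-Im against WT vehicle 6M libraries, and 0.221% and 0.0596% in AppNLGF vehicle against WT vehicle 6M libraries. In the APP/TAU cohort 0% were called higher and 0% lower in APP/TAU 2P-Im against APP/TAU vehicle libraries, where limma gave an unadjusted p below 0.05 to 0.438% of genes with a higher and 26.4% with a lower value. Both APP/TAU 2P-Im and APP/TAU vehicle libraries had 0.0227% of genes called higher and 0% lower against WT vehicle 11M libraries. The count of 0 of 9 is thus close to the background of the tables. These counts, and the unadjusted ones that follow, are for deposited TPM. Without adjustment, limma gave a p below 0.05 to 0 of the 9 genes in AppNLGF 2P-Im against AppNLGF vehicle libraries (2.21% of all genes higher, 3.97% lower) and to 0 in AppNLGF vehicle against WT vehicle 6M libraries (1.69% higher, 2.47% lower). It did so for 2 genes in AppNLGF 2P-Im against WT vehicle 6M libraries, Gpx7 higher and Gpx3 lower (2.06% higher, 5.67% lower), and for 2 in APP/TAU 2P-Im against APP/TAU vehicle libraries, Sod2 and Sod3, both lower. Against WT vehicle 11M libraries it did so for 0 of 9 in APP/TAU 2P-Im (1.29% higher, 0.87% lower) and 0 of 9 in APP/TAU vehicle libraries (23.4% higher, 0.369% lower). The 3 comparisons of a cohort share libraries and are not independent of each other.

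A scale shift runs through the comparisons with APP/TAU vehicle libraries and bears on their folds of deposited TPM below. The most abundant gene row of the tables, ENSMUSG00000118866, took 29.5 ± 1.5% of the TPM in APP/TAU 2P-Im libraries, 22.0 ± 6.6% in APP/TAU vehicle libraries and 30.1 ± 3.7% in WT vehicle 11M libraries (SD, n = 5 each). TPM add up to a fixed total in each library. The median log2 fold of all tested genes was -0.19 for APP/TAU 2P-Im against APP/TAU vehicle and 0.18 for APP/TAU vehicle against WT vehicle 11M. In the AppNLGF cohort the same medians were -0.038 for AppNLGF 2P-Im against AppNLGF vehicle and -0.026 for AppNLGF vehicle against WT vehicle 6M, and the RNA took 33.4 ± 4.5% (SD, n = 13), 33.1 ± 3.3% (SD, n = 11) and 31.7 ± 1.4% (SD, n = 4) of the TPM in AppNLGF 2P-Im, AppNLGF vehicle and WT vehicle 6M libraries. Each comparison was therefore also made after dividing each library by the median ratio of its genes to their geometric means (median-ratio scaling), which brought these 4 medians to between -0.0024 and 0.0022. Unadjusted p-values on that scale are printed below for single genes, without the share of all genes that had such values. On that scale 0 of 9 genes were called as well, against 0.244% of all genes called higher and 0.0417% lower in AppNLGF 2P-Im against AppNLGF vehicle, 0.65% and 0.0656% in AppNLGF 2P-Im against WT vehicle 6M, 0.554% and 0.137% in AppNLGF vehicle against WT vehicle 6M, 0.0114% and 0% in APP/TAU 2P-Im against APP/TAU vehicle, 0.0284% and 0% in APP/TAU 2P-Im against WT vehicle 11M, and 0.0227% and 0.00568% in APP/TAU vehicle against WT vehicle 11M.

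**Figure D2:**
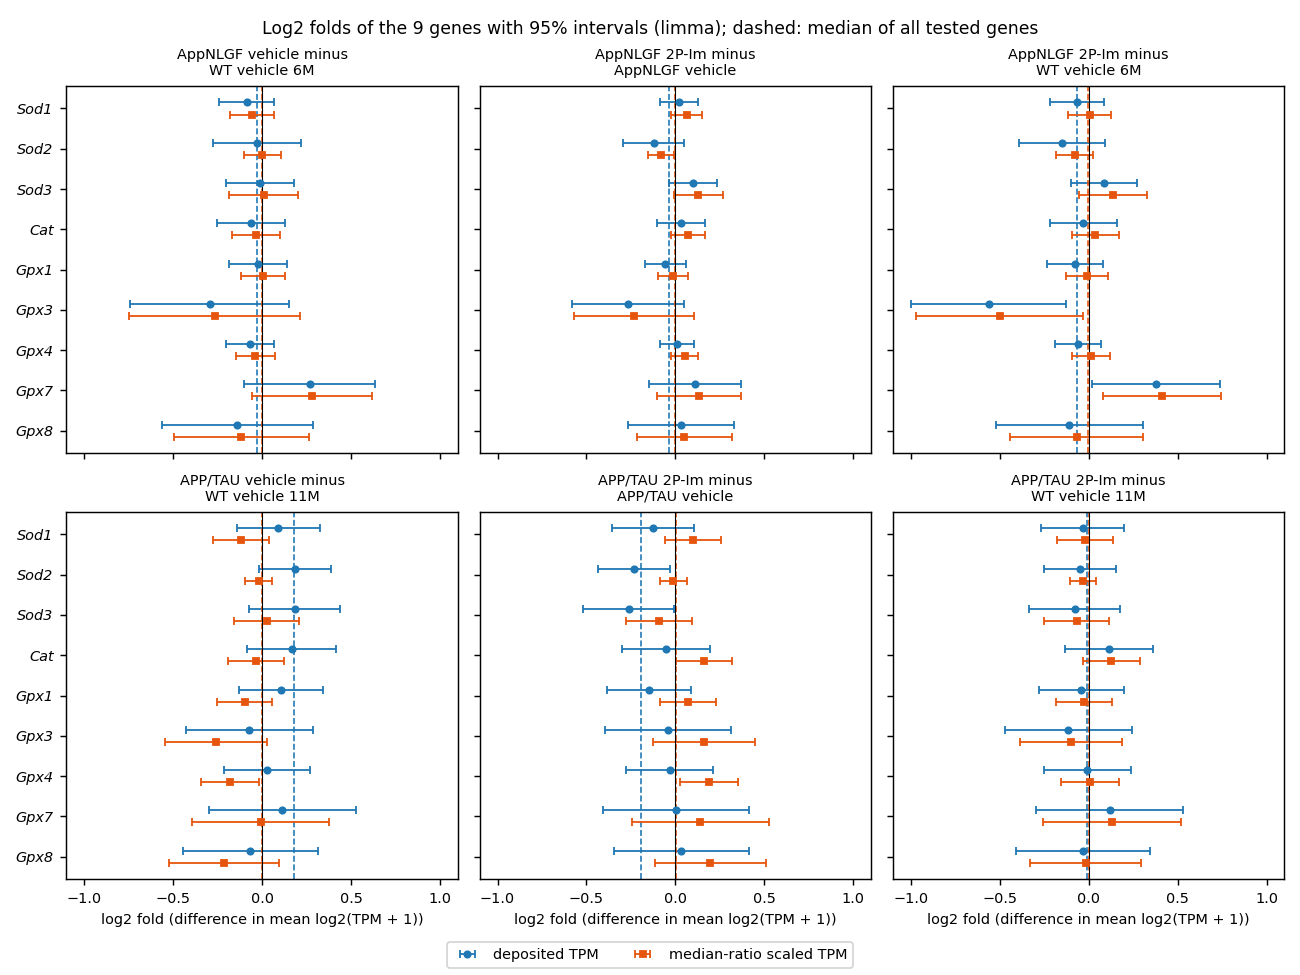
Log2 folds (horizontal axes, difference in mean log2(TPM + 1)) of the 9 genes in the 6 comparisons, with 95% intervals from limma, for deposited TPM (blue circles) and median-ratio scaled TPM (orange squares). The dashed lines mark the median of all tested genes, which lies at -0.19 for deposited TPM in APP/TAU 2P-Im minus APP/TAU vehicle and at 0.18 in APP/TAU vehicle minus WT vehicle 11M.

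Sod1, the cytosolic dismutase (ENSMUSG00000022982, chr16:90220754-90226329, plus strand), was read at 190.3, 188, 162, 182 and 182 TPM in APP/TAU 2P-Im libraries, against 189, 219, 182, 201 and 196 TPM in APP/TAU vehicle libraries. WT vehicle 11M libraries had 169.6, 163, 186, 256 and 164 TPM. The treated libraries all lay below the vehicle median, and all 5 vehicle libraries lay above the wild-type median, with the fourth wild-type library above every other. The log2 fold was -0.13 (95% interval -0.36 to 0.11, limma adjusted p = 0.403) for APP/TAU 2P-Im against APP/TAU vehicle and 0.092 (-0.14 to 0.32, adjusted p = 0.562) for APP/TAU vehicle against WT vehicle 11M. After median-ratio scaling both turned sign, to 0.097 (-0.060 to 0.25) and -0.12 (-0.27 to 0.041). Among the 6-month-old mice Sod1 ranged over 138, 171 and 204 TPM (lowest, median and highest) in AppNLGF 2P-Im libraries and 157, 169.5 and 192 TPM in AppNLGF vehicle libraries, against 184, 183, 186 and 170.2 TPM in WT vehicle 6M libraries. The log2 fold of AppNLGF 2P-Im against AppNLGF vehicle was 0.020 (-0.089 to 0.13, adjusted p = 0.929). The end of Sod1 overlaps Scaf4 on the opposite strand over 650 bases, and Scaf4 averaged 12.5 TPM over the AppNLGF cohort and 14.7 TPM over the APP/TAU cohort. Whether Salmon was run with a strand setting is not stated.

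Sod2, the mitochondrial dismutase (ENSMUSG00000006818, chr17:13006846-13040063, plus strand), had the smallest unadjusted p of the 9 genes for treatment in the APP/TAU cohort, on deposited TPM. It was read at 54.9, 56.8, 53.2, 58.2 and 52.3 TPM in APP/TAU 2P-Im libraries, against 66.7, 73.0, 57.5, 74.4 and 55.2 TPM in APP/TAU vehicle libraries, and 55.3, 52.5, 54.0, 68.1 and 56.1 TPM in WT vehicle 11M libraries. Of the 5 treated libraries, 3 lay below every vehicle library, and the vehicle group was the widest. The log2 fold was -0.23 (-0.44 to -0.032, limma p = 0.0258, adjusted p = 0.168) for APP/TAU 2P-Im against APP/TAU vehicle, close to the median of all genes (-0.19). After median-ratio scaling it was -0.013 (-0.088 to 0.062, adjusted p = 0.948), and the 15 libraries of the cohort lay between 56.3 and 64.3 scaled TPM. For APP/TAU vehicle against WT vehicle 11M it was 0.19 (-0.016 to 0.39, adjusted p = 0.233) on deposited and -0.020 (-0.095 to 0.055) on scaled TPM.

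Among the 6-month-old mice Sod2 ranged over 34.0, 50.6 and 57.1 TPM in AppNLGF 2P-Im libraries and 44.1, 52.4 and 60.7 TPM in AppNLGF vehicle libraries, against 52.3, 54.9, 51.5 and 51.7 TPM in WT vehicle 6M libraries. Treated libraries 1, 2, 5 and 7, at 35.5, 37.1, 34.0 and 40.4 TPM, lay below every vehicle library, as did library 3 at 43.7 TPM, and the size factors of these 5 libraries (0.812, 0.836, 0.833, 0.888 and 0.913) were the lowest of the 13. The log2 fold of AppNLGF 2P-Im against AppNLGF vehicle was -0.12 (-0.29 to 0.051, adjusted p = 0.788) on deposited TPM. For AppNLGF 2P-Im against WT vehicle 6M it was -0.15 (-0.39 to 0.090, adjusted p = 0.741), with 7 of 13 treated libraries below and 4 above every wild-type library, and -0.079 (-0.18 to 0.024, adjusted p = 0.583) on scaled TPM. With the replicate numbers as a block in the fit, that fold on deposited TPM was -0.31 (SE 0.092, limma adjusted p = 0.0355). It was the only member fold past the threshold under any alternative, and with scaling as well as the block it did not pass. The labels do not say that the numbers pair libraries. Same-numbered libraries of these 2 groups correlated at -0.017 to 0.047, although 3 of 4 correlated best with their own number. Wild-type libraries carry only the numbers 1 to 4, and treated libraries 1, 2 and 3 are among the 5 of lowest size factor. Scaling narrowed the spread, to 40.8, 48.7 and 53.5 scaled TPM in AppNLGF 2P-Im libraries and 46.8, 50.2 and 55.2 in AppNLGF vehicle libraries. The fold of AppNLGF 2P-Im against AppNLGF vehicle was then -0.079 (-0.15 to -0.0056, limma p = 0.0359, adjusted p = 0.357), with 4 of 13 treated libraries below every vehicle library and 10 of 13 below the vehicle median. The gene row leaves out single-transcript rows of Sod2, described below. With those rows added and scaled, an alternative chosen after seeing the data, the same fold was 0.0041 (SE 0.041, limma adjusted p = 0.983). Against WT vehicle 6M the fold of AppNLGF 2P-Im was then 0.00051 (SE 0.058).

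Sod3, the extracellular dismutase (ENSMUSG00000072941, chr5:52363791-52371418, plus strand), had treatment folds of opposite sign in the cohorts, neither of them past the adjusted threshold. APP/TAU 2P-Im libraries had 2.84, 2.45, 2.48, 2.46 and 2.02 TPM, against 3.32, 3.94, 2.21, 3.41 and 2.92 TPM in APP/TAU vehicle libraries. WT vehicle 11M libraries had 2.49, 2.26, 2.43, 2.96 and 3.08 TPM. All 5 treated libraries lay below the vehicle median, and vehicle library 3 was below 4 of them. The log2 fold was -0.26 (-0.52 to -0.0054, limma p = 0.0459, adjusted p = 0.182), where the median of all genes was -0.19. After scaling it was -0.093 (-0.28 to 0.090, adjusted p = 0.785). At 6 months Sod3 ranged over 1.78, 2.18 and 3.03 TPM in AppNLGF 2P-Im libraries and 1.41, 2.05 and 2.46 TPM in AppNLGF vehicle libraries, against 2.13, 2.06, 2.13 and 1.80 TPM in WT vehicle 6M libraries. Of the 13 treated libraries, 10 lay above the vehicle median, and the log2 fold was 0.099 (-0.034 to 0.23, adjusted p = 0.780). On scaled TPM it was 0.13 (-0.0069 to 0.26, limma p = 0.0619, adjusted p = 0.426), with 7 of 13 above the vehicle median and 6 above every vehicle library. The treatment effects of the 2 cohorts were set against each other in a joint limma fit of all 6 groups. That fit covered the 16418 genes that reached the minimum in each table. The effect in the AppNLGF cohort minus that in the APP/TAU cohort was 0.36 (0.11 to 0.61, limma p = 0.00565, adjusted p = 0.155), where the median of all genes was 0.15. On scaled TPM that difference was 0.22 (-0.0069 to 0.45, p = 0.0570, adjusted p = 0.452). Neither passed the adjusted threshold, and of all genes in this test 0.128% were called higher and 0.00609% lower on deposited TPM.

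Cat, the peroxisomal catalase (ENSMUSG00000027187, chr2:103453849-103485160, minus strand), was read at 19.5, 22.5, 20.8, 20.5 and 20.9 TPM in APP/TAU 2P-Im libraries, 22.7, 26.1, 17.8, 22.5 and 20.0 TPM in APP/TAU vehicle libraries, and 16.6, 18.2, 19.2, 26.2 and 17.3 TPM in WT vehicle 11M libraries. On deposited TPM the treated libraries lay within the range of the vehicle libraries, and the log2 fold was -0.053 (-0.30 to 0.19, adjusted p = 0.747). On scaled TPM they had 20.9, 22.3, 23.4, 20.1 and 23.0, against 19.9, 20.5, 18.2, 18.5 and 20.5 in APP/TAU vehicle libraries, so that 4 of 5 were above every vehicle library. The scaled fold was 0.16 (0.0033 to 0.32, limma p = 0.0459, adjusted p = 0.561). At 6 months Cat ranged over 12.2, 15.3 and 20.5 TPM in AppNLGF 2P-Im libraries and 12.2, 15.3 and 16.9 TPM in AppNLGF vehicle libraries, against 14.5, 16.7, 16.6 and 15.3 TPM in WT vehicle 6M libraries. The log2 fold with treatment was 0.032 (-0.10 to 0.17, adjusted p = 0.907) on deposited TPM. It was 0.072 (-0.022 to 0.17, adjusted p = 0.543) on scaled TPM, where 12 of 13 treated libraries were above the vehicle median and 1 was above every vehicle library.

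Gpx1, the main cytosolic peroxidase (ENSMUSG00000063856, chr9:108338903-108340343, plus strand), showed no difference beyond its spread in either cohort. APP/TAU 2P-Im libraries had 42.7, 46.5, 41.4, 41.1 and 48.7 TPM, against 48.7, 53.0, 48.1, 52.7 and 42.5 TPM in APP/TAU vehicle libraries. The log2 fold was -0.15 (-0.39 to 0.089, adjusted p = 0.344), or 0.072 (-0.084 to 0.23) after scaling. WT vehicle 11M libraries spread from 35.7 to 59.3 TPM. In the AppNLGF cohort the medians were 52.1 TPM in AppNLGF 2P-Im, 52.6 TPM in AppNLGF vehicle and 54.1 TPM in WT vehicle 6M libraries, and the treatment fold was -0.056 (-0.17 to 0.057, adjusted p = 0.822).

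Gpx3, the secreted peroxidase (ENSMUSG00000018339, chr11:54902453-54910377, plus strand), had the largest fold among the 9 genes in log2(TPM + 1). On that scale it also had the largest spread between libraries in the AppNLGF cohort, with a within-group SD of 0.39 against 0.11 to 0.37 for the other 8 genes. The added 1 shrinks folds and spread more for Gpx7, which averaged 1.52 TPM in AppNLGF 2P-Im and 0.947 TPM in WT vehicle 6M libraries. Gpx3 averaged 3.51 and 5.47 TPM in these groups. It ranged over 1.73, 3.32 and 5.73 TPM in AppNLGF 2P-Im libraries and 2.74, 3.98 and 7.79 TPM in AppNLGF vehicle libraries, against 5.67, 6.65, 4.93 and 4.64 TPM in WT vehicle 6M libraries. Of the AppNLGF 2P-Im libraries 10 of 13 lay below all 4 wild-type libraries and 0 above all 4, and of the AppNLGF vehicle libraries 8 of 11 lay below and 2 above all 4. The log2 fold was -0.56 (-0.998 to -0.13, limma p = 0.0133, adjusted p = 0.548) for AppNLGF 2P-Im against WT vehicle 6M and -0.30 (-0.74 to 0.15, adjusted p = 1.0) for AppNLGF vehicle against WT vehicle 6M. For AppNLGF 2P-Im against AppNLGF vehicle it was -0.27 (-0.58 to 0.046, adjusted p = 0.778). That fold was -0.60 (SE 0.25, adjusted p = 0.228) among the libraries numbered 1 to 5 of both groups and -0.0051 (SE 0.17, adjusted p = 0.999) among those numbered 6 and above, a division made after seeing that size factors differ between these numbers. On scaled TPM these were -0.52 (SE 0.26) and 0.013 (SE 0.18). Over all libraries the scaled fold was -0.23 (-0.57 to 0.10, limma adjusted p = 0.588) against AppNLGF vehicle. Against WT vehicle 6M it was -0.50 (-0.97 to -0.030, limma p = 0.0378, adjusted p = 0.393). In the APP/TAU cohort APP/TAU 2P-Im libraries had 8.85, 10.5, 8.00, 11.3 and 11.5 TPM, APP/TAU vehicle libraries 9.03, 13.4, 8.92, 10.4 and 10.1 TPM, and WT vehicle 11M libraries 7.74, 9.29, 12.7, 16.7 and 9.70 TPM. The groups overlapped, and the treatment fold was -0.043 (-0.40 to 0.31, adjusted p = 0.861).

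Gpx4, the lipid peroxide reductase (ENSMUSG00000075706, chr10:80047166-80056439, plus strand), had the smallest spread of the 9 genes in the AppNLGF cohort on deposited TPM (within-group SD 0.11). There it ranged over 145.0, 179 and 195 TPM in AppNLGF 2P-Im libraries and 161, 169.9 and 193 TPM in AppNLGF vehicle libraries, against 188, 183, 179 and 171 TPM in WT vehicle 6M libraries. The treatment fold was 0.0092 (-0.084 to 0.10, adjusted p = 0.967), or 0.052 (-0.025 to 0.13, adjusted p = 0.601) after scaling. APP/TAU 2P-Im libraries had 168, 195, 163, 198 and 197 TPM, against 199.6, 204, 176, 178 and 182 TPM in APP/TAU vehicle libraries and 176, 159, 175, 258 and 168 TPM in WT vehicle 11M libraries. On deposited TPM the treatment fold was -0.033 (-0.28 to 0.21, adjusted p = 0.842). On scaled TPM the APP/TAU 2P-Im libraries had 179.7, 193, 184, 194 and 217 against 175, 159.7, 180.1, 146 and 187 in APP/TAU vehicle and 180.1, 195, 189, 223 and 175 in WT vehicle 11M libraries. All 5 treated libraries were then above the vehicle median and 3 above every vehicle library, while all 5 vehicle libraries were below the wild-type median. The scaled folds were 0.19 (0.027 to 0.35, limma p = 0.0251, adjusted p = 0.520) for APP/TAU 2P-Im against APP/TAU vehicle and -0.18 (-0.35 to -0.019, limma p = 0.0308, adjusted p = 0.300) for APP/TAU vehicle against WT vehicle 11M. They rest on the same 5 vehicle libraries, and APP/TAU 2P-Im against WT vehicle 11M gave 0.0080 (-0.15 to 0.17).

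**Figure D3:**
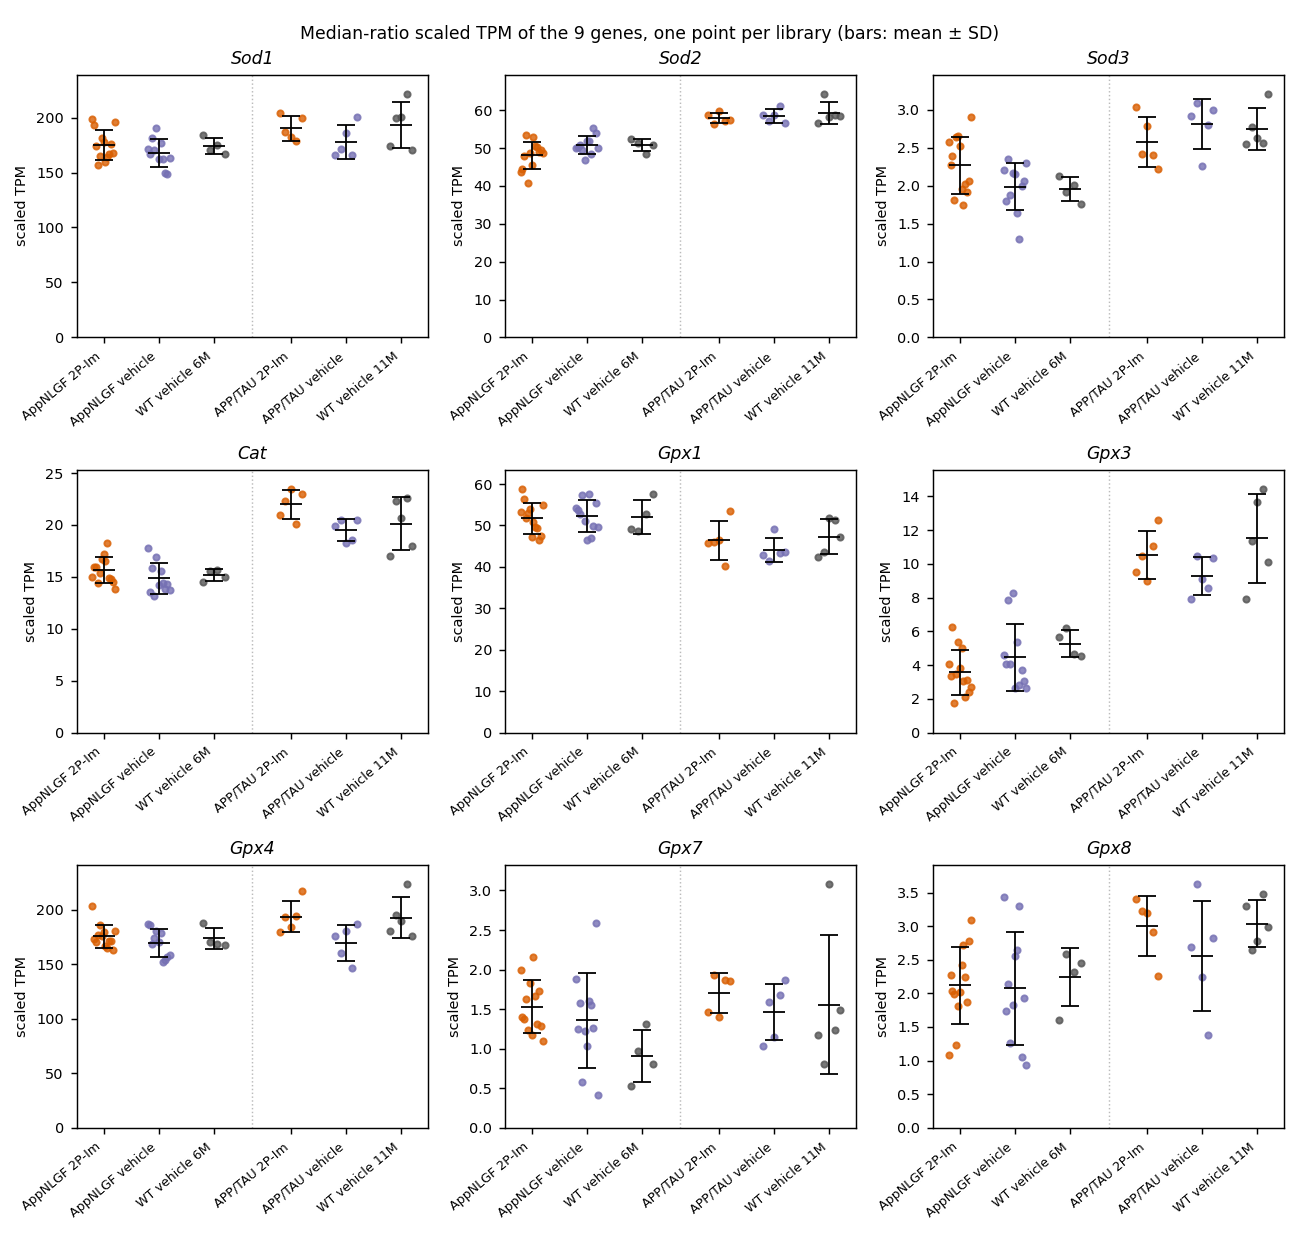
Median-ratio scaled TPM (vertical axes, starting at 0) of the 9 genes, with 1 point per library and bars for the mean ± SD of each group. For Gpx4 and Cat, 3 and 4 of the 5 APP/TAU 2P-Im libraries lie above every APP/TAU vehicle library, and Sod2 spans 56.3 to 64.3 over the 15 libraries of that cohort.

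Gpx7 and Gpx8, the peroxidases of the endoplasmic reticulum, were read at a few TPM or less with wide spread. Gpx7 (ENSMUSG00000028597, chr4:108400390-108406961, minus strand) ranged over 1.03, 1.49 and 2.31 TPM in AppNLGF 2P-Im libraries and 0.441, 1.39 and 2.82 TPM in AppNLGF vehicle libraries, against 0.528, 1.04, 1.39 and 0.829 TPM in WT vehicle 6M libraries. The log2 fold was 0.38 (0.016 to 0.74, limma p = 0.0410, adjusted p = 0.644) for AppNLGF 2P-Im against WT vehicle 6M, 0.27 (-0.10 to 0.63, adjusted p = 1.0) for AppNLGF vehicle against WT vehicle 6M, and 0.11 (-0.15 to 0.37, adjusted p = 0.841) for AppNLGF 2P-Im against AppNLGF vehicle. On scaled TPM the first of these was 0.41 (0.081 to 0.74, limma p = 0.0166, adjusted p = 0.294). There 13 of 13 treated libraries lay above the wild-type median and 9 above every wild-type library. Of the 11 AppNLGF vehicle libraries, 9 lay above that median and 5 above every wild-type library. In the APP/TAU cohort the groups spanned 1.24 to 1.94 TPM in APP/TAU 2P-Im, 1.12 to 2.04 TPM in APP/TAU vehicle and 0.663 to 2.85 TPM in WT vehicle 11M libraries, and the treatment fold was 0.0038 (-0.41 to 0.42). Gpx8 (ENSMUSG00000021760, chr13:113042753-113046410, minus strand) lies within Cdc20b on the opposite strand, which averaged 0.021 TPM over the AppNLGF cohort and 0.010 TPM over the APP/TAU cohort. Its treatment fold was 0.031 (-0.27 to 0.33, adjusted p = 0.966) in the AppNLGF and 0.034 (-0.34 to 0.41, adjusted p = 0.899) in the APP/TAU cohort. Folds on the log2(TPM + 1) scale understate changes of genes this low, and TPM carry no read depth from which a counting error could be given.

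The directions of several members depended on the scale in both cohorts, as did those of many other genes. On deposited TPM 7 of 9 had a fold below 0 for APP/TAU 2P-Im against APP/TAU vehicle, where 90.1% of all genes did, and 7 of 9 a fold above 0 for APP/TAU vehicle against WT vehicle 11M, where 90.1% did. After scaling 7 of 9 had a fold above 0 in the first of these, as did 51% of all genes, with a median of 0.14 against 0.0022 over all genes, and 8 of 9 a fold below 0 in the second, as did 50.8% of all genes, with a median of -0.098 against -0.0024. In the AppNLGF cohort 6 of 9 scaled treatment folds were above 0, as were 49% of all genes, with a median of 0.052 against -0.0020. The first 2 comparisons share the APP/TAU vehicle libraries. Median-ratio scaling turned the direction of 5 members for APP/TAU 2P-Im against APP/TAU vehicle (Sod1, Cat, Gpx1, Gpx3, Gpx4), where it did so for 41.2% of all genes, and of 6 for APP/TAU vehicle against WT vehicle 11M (Sod1, Sod2, Cat, Gpx1, Gpx4, Gpx7), where it did so for 40.9%, none of the 9 being called on either scale. For APP/TAU 2P-Im against WT vehicle 11M it turned 1 of 9, Gpx4, and 5.5% of all genes. In the AppNLGF cohort it turned 3 of 9 for AppNLGF vehicle against WT vehicle 6M, and 11.2% of all genes. For AppNLGF 2P-Im it turned 3 of 9 against WT vehicle 6M (19.0% of all genes) and 0 of 9 against AppNLGF vehicle (15.5%). Between the cohorts, 0 of 9 genes differed in their genotype effect or in their treatment effect at an adjusted p below 0.05, on either scale. Of all genes, 0.0183% were called higher and 0.158% lower in the genotype effect of the AppNLGF cohort minus that of the APP/TAU cohort on deposited TPM, and 0.359% and 0.171% on scaled TPM. In the treatment effect 0.0487% were called higher and 0.0244% lower on scaled TPM.

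One library moved the APP/TAU genotype values. WT vehicle 11M library 4 had the highest deposited value of its group for 7 of the 9 genes. Without it, the log2 folds of APP/TAU vehicle against WT vehicle 11M on deposited TPM were 0.21 for Sod1 (adjusted p = 0.0652), 0.27 for Cat (adjusted p = 0.0659), 0.25 for Sod2 (adjusted p = 0.0665) and 0.20 for Gpx1 (adjusted p = 0.110), against 0.092, 0.17, 0.19 and 0.11 with it. Gpx4 stood at 0.15 (adjusted p = 0.146) without it and 0.026 with it, Sod3 at 0.21 and 0.18, and Gpx7 at 0.12 and 0.11. Gpx3 and Gpx8 turned sign, to 0.074 and 0.024 without it. On scaled TPM without that library the folds of Sod1, Cat, Sod2 and Gpx1 were -0.066, 0.0080, -0.023 and -0.068, and that of Gpx4 was -0.13 (adjusted p = 0.520) against -0.18 with it.

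The AppNLGF table also lists 64708 rows of single transcripts outside the gene rows, and some belong to the members by their GENCODE M21 names. This was looked at after the data were seen. Sod2 has 7 such rows, among them a transcript marked for nonsense-mediated decay and 4 retained introns. Summed, they came to 29.1 ± 5.98 TPM in AppNLGF 2P-Im (SD, n = 13), 26.4 ± 5.09 TPM in AppNLGF vehicle (SD, n = 11) and 27.2 ± 6.65 TPM in WT vehicle 6M libraries (SD, n = 4), which is 37.9%, 33.7% and 33.7% of all Sod2 TPM. The gene row therefore does not hold the whole of the Sod2 signal in that table. Gpx4 has 4 such rows, mostly the retained-intron transcript Gpx4-203. Their sum was 9.76 ± 9.92 TPM in AppNLGF 2P-Im, 4.49 ± 3.97 TPM in AppNLGF vehicle, and 21.4 ± 15.8 TPM in WT vehicle 6M libraries. An exact two-sided permutation test gave p = 0.00440 for AppNLGF vehicle against WT vehicle 6M, with 6 of 11 libraries below all 4 wild-type libraries, and an adjusted p of 0.0528 over the 12 tests of this kind. The same exact test gave p = 0.113 for AppNLGF 2P-Im against AppNLGF vehicle. Sod1 (1 row, 2.71 to 2.81 TPM on average in each group) and Gpx1 (1 row, 0.229 to 0.248 TPM) added little, and the 2 rows of Gpx3 were listed at 0 in all AppNLGF-cohort libraries. With these rows added to their genes, 0 of 9 members were called in the 3 comparisons of that cohort. The APP/TAU table lists 0 single-transcript rows, and its gene rows held 84.9% to 90.8% of the TPM of a library. Whether its member rows are incomplete in the same way could not be examined.

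**Figure D4:**
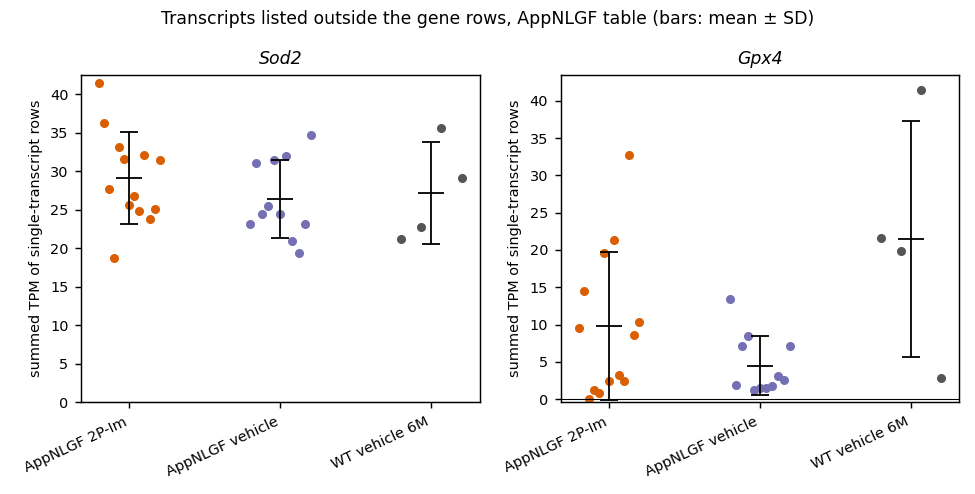
Summed TPM (vertical axes) of the single-transcript rows of Sod2 and Gpx4 listed apart from the gene rows in the AppNLGF table, 1 point per library, with the mean ± SD of each group. The Sod2 sums overlap between groups, and 3 of the 4 WT vehicle 6M libraries have higher Gpx4 sums than every AppNLGF vehicle library.

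Other genes of peroxide metabolism were mostly not called either. Of the peroxidases and dismutase partners (peroxiredoxins, thioredoxins, glutaredoxins and the copper chaperone Ccs), 0 of 17 tested for AppNLGF and 0 of 18 tested for APP/TAU were called in any comparison on either scale. In APP/TAU 2P-Im against APP/TAU vehicle the smallest scaled p were those of Gpx2 (0.62, SE 0.18, adjusted p = 0.461) and Prdx3, the mitochondrial peroxiredoxin (0.21, SE 0.067, adjusted p = 0.475). Of the genes that make or recycle glutathione, 0 of 12 tested in each table were called, and the smallest scaled p for treatment were those of Gsr, glutathione reductase, in the APP/TAU cohort (0.26, SE 0.063, adjusted p = 0.343) and of Gclc, the catalytic subunit of the first step of glutathione synthesis, in the AppNLGF cohort (0.094, SE 0.027, adjusted p = 0.118). Likewise 0 of 14 selenoprotein and selenocysteine machinery genes and 0 of 15 peroxisome biogenesis genes were called in either table. The median scaled folds for APP/TAU 2P-Im against APP/TAU vehicle were 0.126 for the peroxidases and partners, 0.182 for glutathione supply, 0.083 for the selenoprotein list and 0.066 for the peroxisome list, against 0.0022 over all genes. On deposited TPM these medians were all below 0 (-0.092, -0.033, -0.13 and -0.144), as was that of all genes. For AppNLGF 2P-Im against AppNLGF vehicle the scaled medians of these lists, in the same order, were 0.014, 0.094, -0.029 and -0.022. The median over all genes there was -0.002. Of the superoxide and peroxide sources, 6 were tested in the AppNLGF table. On scaled TPM 2 of them rose in AppNLGF 2P-Im and 2 in AppNLGF vehicle libraries, each against WT vehicle 6M libraries, among them Cyba, a subunit of the phagocyte NADPH oxidase, by 0.54 (SE 0.12, limma adjusted p = 0.0255) and 0.56 (SE 0.13, adjusted p = 0.0251). On deposited TPM 0 of 6 passed.

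Among the NRF2 readout genes, a list chosen with earlier results of these data known, some passed the test with treatment. On scaled TPM 4 of 13 tested rose in AppNLGF 2P-Im against AppNLGF vehicle libraries: Gstm1, a glutathione transferase, by 0.50 (SE 0.065, limma adjusted p = 0.000104), Ftl1, the ferritin light chain, by 0.27 (SE 0.036, adjusted p = 0.000121), Aox1, an aldehyde oxidase, by 0.52 (SE 0.090, adjusted p = 0.00523) and Nqo1, a quinone reductase, by 0.47 (SE 0.10, adjusted p = 0.0269). In APP/TAU 2P-Im against APP/TAU vehicle libraries 2 of 13 rose, Ftl1 by 0.41 (SE 0.042, adjusted p = 0.00117) and Gstm1 by 0.64 (SE 0.068, adjusted p = 0.00117). On deposited TPM the counts were 1 of 13, Aox1, and 0 of 13. The median scaled fold of the 13 genes was 0.099 in the AppNLGF and 0.232 in the APP/TAU cohort, against -0.0020 and 0.0022 over all genes.

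Cell type markers were read in all 6 groups, and their levels were not set against a reference tissue. Summed TPM of 8 neuron markers ran from 1782 to 2788 over the 6 groups, and no marker of the 8 cell type lists was at 0 throughout a group. In the AppNLGF cohort 7 microglia markers summed to 83.7 to 185 TPM in AppNLGF 2P-Im, 116 to 181 TPM in AppNLGF vehicle and 108 to 119 TPM in WT vehicle 6M libraries. On scaled TPM 3 of the 7 rose in AppNLGF 2P-Im against WT vehicle 6M libraries, among them Csf1r by 0.34 and Itgam by 0.35, and 3 of 7 rose in AppNLGF vehicle against WT vehicle 6M libraries, among them Csf1r by 0.45 and Itgam by 0.37. The endothelial marker Cldn5, 1 of 7, rose by 0.57 in AppNLGF 2P-Im against WT vehicle 6M libraries. Gfap, 1 of 7 astrocyte markers, rose by 1.58 (SE 0.21, adjusted p = 4.97e-05) in AppNLGF vehicle against WT vehicle 6M libraries on deposited TPM, and Rgs5, 1 of 8 tested markers of mural cells and fibroblasts, rose by 0.27 there on scaled TPM. Both also rose in AppNLGF 2P-Im against WT vehicle 6M libraries, by 1.47 and 0.30 on the same scales. Red blood cells are rich in SOD1, catalase and GPX1, and their 7 markers summed to 6.41 to 134 TPM in AppNLGF 2P-Im, 16.6 to 129 TPM in AppNLGF vehicle and 84.7 to 246 TPM in WT vehicle 6M libraries. In the APP/TAU cohort they summed to 20.3 to 247 TPM in APP/TAU 2P-Im, 29.8 to 473 TPM in APP/TAU vehicle and 22.0 to 65.2 TPM in WT vehicle 11M libraries. Choroid plexus markers summed to 9.52 to 621 TPM in AppNLGF 2P-Im, 7.51 to 692 TPM in AppNLGF vehicle and 490.4 to 734 TPM in WT vehicle 6M libraries. The part of these differences in the member values was not tested, and in whole tissue fewer cells of a type and less RNA per cell cannot be told apart.

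The genes whose values across libraries were most like those of each member were found by Pearson r of scaled log2(TPM + 1), over 28 libraries among 8917 genes in the AppNLGF cohort and over 15 libraries among 9605 genes in the APP/TAU cohort. The r given are the highest among all genes searched for a member and are a description. The 3 genes closest to Gpx3 were Peg10 (r = 0.929), Vat1l (0.914) and Tmem130 (0.872) in the AppNLGF cohort, and in the APP/TAU cohort they were Abhd3 (0.922), Slc17a6 (0.921) and Klhl13 (0.898). Sod2 followed Eif1ax (0.876), Elavl4 (0.871) and Igip (0.834) in the AppNLGF cohort and Selplg (0.819), Hnrnpab (0.806) and Wdr45 (0.783) in the APP/TAU cohort. Of the other members, the closest gene in the AppNLGF and in the APP/TAU cohort was Rpl3 (0.767) and Elavl2 (0.938) for Sod1, Baz2b (0.706) and Slc9a3r2 (0.857) for Sod3, and Gstp1 (0.722) and Mkrn2 (0.937) for Cat. It was Epb41l3 (0.644) and Retreg1 (0.888) for Gpx1, Haghl (0.784) and Gnai2 (0.941) for Gpx4, Dhdds (0.581) and Ost4 (0.822) for Gpx7, and Cnep1r1 (0.717) and Mbnl1 (0.854) for Gpx8. None of the 54 genes listed among the 3 closest was named for the same member in both cohorts.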

How the data were processed

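RNA of 43 mouse brain libraries was prepared with the MGIEasy RNA Directional Library Prep Set, per the labels' protocols. The authors deposited 2 tables of TPM, made with Salmon on GRCm38 (mm10) per the submitters' processing notes, versions not given in the sources used here. Gene rows held 88.5% to 91.4% of the TPM of a library in the AppNLGF table and 84.9% to 90.8% in the APP/TAU table. The read depth behind the values is unknown. Symbols and positions came from GENCODE M21, which matched 51327 of the 55804 gene rows.

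Each table was fitted with limma 3.58.1 (R 4.3.3) on log2(TPM + 1), with 1 mean per group and trended moderation, over genes with a mean of at least 1 TPM. P-values were adjusted over all genes of a table by Benjamini-Hochberg, and genes were called below 0.05. Tables were made with Python 3.11.15, pandas 2.3.3, numpy 2.4.6 and scipy 1.17.1. The fits were tested on simulated data. Samples were grouped by their labels. Alternatives were another scaling, pseudocount, minimum level, moderation and replicate block, and leaving out each library. All 9 members are named, with the genes closest to each by correlation and, from fixed lists, those called and those of smallest p. The members and lists were chosen with earlier results of these data known. Sequences are from RefSeq, GRCm38.p6. Some genes of the lists are not reported here.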

Additional observations from a re-analysis of the deposited data

Results flagged for a closer look

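Dixon's gap criterion was applied to each gene in each group of 4 to 10 libraries, on both scales. It marked 7 of 72 groups. Chance marks about 1 in 20 of independent groups. Genes and scales here share libraries, so the 7 marks cannot be set against that rate. On deposited TPM all 4 marks fell on library 4 of WT vehicle 11M. That library had 256 TPM of Sod1 (163 to 186 in the other 4), 68.1 TPM of Sod2 (52.5 to 56.1), 26.2 TPM of Cat (16.6 to 19.2) and 258 TPM of Gpx4 (159 to 176). Its size factor was 1.16, against 0.816 to 0.975 in the other 4. On scaled TPM none of these 4 marks was left. There, Gpx1 stood at 49.1 in library 3 of APP/TAU vehicle (41.5 to 43.5 in the others), Gpx4 at 188 in library 1 of WT vehicle 6M (168 to 171) and Sod2 at 64.3 in library 2 of WT vehicle 11M (56.7 to 58.9).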

How the results depend on the processing

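Of 2131 member folds recomputed under all alternatives, 1 passed the threshold. Under the pseudocount, minimum level, moderation, scaling, row and library alternatives the number of members called stayed at 0. With 1 library left out, the lowest adjusted p of a member was 0.0652 in limma. For 65 folds with all or a numbered share of the libraries and 98 folds with 1 library left out, the sign turned, at an absolute value of at most 0.22, and the cause was not tested. Median-ratio scaling turned the sign of these log2 folds, given as scaled. In AppNLGF vehicle against WT vehicle 6M they were Sod2 at 0.00046, Sod3 at 0.0085 and Gpx1 at 0.0056. In AppNLGF 2P-Im against WT vehicle 6M they were Sod1 at 0.0063, Cat at 0.037 and Gpx4 at 0.014. In APP/TAU vehicle against WT vehicle 11M they were Sod1 at -0.12, Sod2 at -0.020, Cat at -0.034, Gpx1 at -0.098, Gpx4 at -0.18 and Gpx7 at -0.0086. In APP/TAU 2P-Im against APP/TAU vehicle they were Sod1 at 0.097, Cat at 0.16, Gpx1 at 0.072, Gpx3 at 0.16 and Gpx4 at 0.19. In APP/TAU 2P-Im against WT vehicle 11M they were Gpx4 at 0.0080. In the genotype effect of the AppNLGF minus the APP/TAU cohort they were Sod1 at 0.060, Sod2 at 0.021, Gpx1 at 0.10, Gpx4 at 0.14 and Gpx8 at 0.098. In the treatment effect of the AppNLGF minus the APP/TAU cohort they were Sod1 at -0.034, Sod2 at -0.066, Cat at -0.090, Gpx1 at -0.085, Gpx4 at -0.14 and Gpx7 at -0.0084. The labels do not say whether the replicate numbers pair the libraries. Correlations of same-numbered deviations ran from -0.081 to 0.118. In AppNLGF 2P-Im against WT vehicle 6M, 3 of 4 libraries correlated best with their own number, as did 3 of 5 in APP/TAU 2P-Im against WT vehicle 11M. It was 2 of 11 in AppNLGF 2P-Im against AppNLGF vehicle and 0 of 4 in AppNLGF vehicle against WT vehicle 6M. APP/TAU vehicle against WT vehicle 11M and APP/TAU 2P-Im against APP/TAU vehicle each had 1 of 5. With the replicate block, the signs turned on deposited TPM for Sod1 (-0.013), Gpx4 (-0.0082) and Gpx8 (-0.050) in AppNLGF 2P-Im against AppNLGF vehicle, and members called in AppNLGF 2P-Im against WT vehicle 6M came to 1, Sod2 at -0.31 (SE 0.092, limma adjusted p = 0.0355). With scaling and the replicate block the APP/TAU values were those of scaling alone, and the signs turned for Sod3 (0.035), Gpx1 (0.080) and Gpx4 (0.019) in AppNLGF vehicle against WT vehicle 6M, for Gpx8 (-0.017) in AppNLGF 2P-Im against AppNLGF vehicle, and for Sod1 (0.046), Cat (0.045), Gpx1 (0.069) and Gpx4 (0.077) in AppNLGF 2P-Im against WT vehicle 6M. With the single-transcript rows added and scaled, an alternative chosen after seeing the data, the signs turned for Sod3 (0.0069) and Gpx1 (0.0027) in AppNLGF vehicle against WT vehicle 6M, for Sod2 (0.0041) in AppNLGF 2P-Im against AppNLGF vehicle, and for Sod2 (0.00051) and Cat (0.015) in AppNLGF 2P-Im against WT vehicle 6M. In a division chosen after seeing the data, among libraries numbered 1 to 5, AppNLGF 2P-Im against AppNLGF vehicle gave Sod1 -0.11, Cat -0.11, Gpx4 -0.094 and Gpx8 -0.22 on deposited and Cat -0.0033, Gpx1 0.021 and Gpx8 -0.16 on scaled TPM, and among those numbered 6 and above Gpx3 0.013 on scaled TPM. Leaving out each library in turn gave these ranges where a sign turned. In AppNLGF vehicle against WT vehicle 6M they were Sod3 -0.049 to 0.020, Gpx1 -0.068 to 0.017, Sod2 scaled -0.020 to 0.016, Sod3 scaled -0.023 to 0.045, Gpx1 scaled -0.024 to 0.055, Gpx4 scaled -0.054 to 0.00072. In AppNLGF 2P-Im against AppNLGF vehicle they were Sod1 -0.00045 to 0.047, Cat -0.00062 to 0.058, Gpx4 -0.0051 to 0.030, Gpx8 -0.028 to 0.091, Gpx1 scaled -0.030 to 0.00036, Gpx8 scaled -0.013 to 0.11. In AppNLGF 2P-Im against WT vehicle 6M they were Sod1 scaled -0.013 to 0.034, Gpx1 scaled -0.038 to 0.041, Gpx4 scaled -0.0032 to 0.053. In APP/TAU vehicle against WT vehicle 11M they were Gpx3 -0.18 to 0.074, Gpx4 -0.027 to 0.15, Gpx7 -0.020 to 0.28, Gpx8 -0.21 to 0.054, Sod2 scaled -0.037 to 0.0088, Sod3 scaled -0.0014 to 0.080, Cat scaled -0.090 to 0.0080, Gpx7 scaled -0.12 to 0.17. In APP/TAU 2P-Im against APP/TAU vehicle they were Cat -0.12 to 0.012, Gpx3 -0.091 to 0.045, Gpx4 -0.060 to 0.0087, Gpx7 -0.070 to 0.060, Gpx8 -0.086 to 0.18, Sod2 scaled -0.024 to 0.0035. In APP/TAU 2P-Im against WT vehicle 11M they were Sod1 -0.079 to 0.083, Sod2 -0.077 to 0.015, Gpx1 -0.13 to 0.054, Gpx3 -0.22 to 0.031, Gpx4 -0.060 to 0.11, Gpx7 -0.016 to 0.29, Gpx8 -0.11 to 0.057, Sod1 scaled -0.062 to 0.031, Gpx1 scaled -0.077 to 0.022, Gpx4 scaled -0.033 to 0.062, Gpx8 scaled -0.054 to 0.055.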

Other observations

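Nnt, the mitochondrial transhydrogenase that supplies NADPH for glutathione recycling, has 2 gene rows in the tables. One row (ENSMUSG00000025453) averaged 2.83 ± 1.47 TPM in AppNLGF 2P-Im (SD, n = 13), 3.14 ± 1.68 TPM in AppNLGF vehicle (SD, n = 11) and 1.29 ± 0.347 TPM in WT vehicle 6M libraries (SD, n = 4). The other (ENSMUSG00000116207) averaged 6.30 ± 1.61, 5.63 ± 2.16 and 7.24 ± 1.55 TPM in these groups. The scaled log2 folds of AppNLGF vehicle against WT vehicle 6M were 0.78 (SE 0.28, limma adjusted p = 0.405) and -0.43 (SE 0.34), and how Salmon divided reads between these rows was not tested.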
